A study of Mus musculus with 2 samples.

Results

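The 7 genes described here encode transcription factors that were listed together under T cell quiescence, the resting state: *Klf2*, *Klf3*, *Klf6*, *Lef1*, *Satb1*, *Foxo1* and *Foxp1*. In these data *Klf6* did not follow the others. They were taken by symbol from the 32285 genes counted, and each symbol matched 1 gene. Single-cell RNA was measured in CD8+ tumor-infiltrating lymphocytes (TIL) sorted from B16 F0 melanoma tumors transplanted into male C57BL/6J mice aged 16 weeks. Lean mice, kept on normal chow, gave 1 library, and mice made obese by a western diet gave the other. The labels name no transgene and no treatment besides the diet and the tumor, so the TIL are the host's own CD8+ T cells. How many mice went into a library is not stated, so there are no replicates, no test between diets was possible, and library and diet cannot be told apart. Every interval below is a 95% interval that covers counting error only.

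Resting T cells are kept out of the cell cycle by an active transcriptional program. KLF2, a zinc finger factor, drives genes of circulation such as *S1pr1*, the receptor that lets T cells leave tissue, and FOXO1, which is held in the nucleus when PI3K and AKT signalling is low, drives *Klf2* and *Il7r*. Signals through the T cell receptor turn much of this program down as cells become effectors.

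The limits stated in the study's methods, applied here to the deposited cells, left 2456 lean and 2289 obese cells. The paper itself counts 2697 and 2623 cells after its quality control. The cells left had 27815785 and 28705830 unique molecular identifiers (UMIs), each of which marks 1 captured RNA molecule. Cells were placed in gates by the share of their UMIs in markers that include none of the 7 genes. The cycling gate used *Mki67* and other cell cycle genes, the effector gate granzymes and *Prf1*, the memory-like gate *Ccl5*, *Gzma*, *Gzmk*, *Cxcr3* and *Il2rb*, and the naive-like gate markers that include *Ccr7*, *Dapl1* and *Igfbp4*. The naive-like gate held 306 lean and 315 obese cells, the memory-like gate 937 and 1094, the effector gate 675 and 292, and the cycling gate 411 and 490. *Cd3d* was seen in 94.3% to 97.7% of the cells of every gate and library. The gates are ranges of a score, and between 10.7% and 25% of all cells lay within 2-fold of a cut. Levels are given as counts per 1000000 UMIs (CPM), from UMIs summed over the cells of a gate and library. In such sums, fewer cells that express a gene and less RNA per cell cannot be told apart.

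The 6 factors other than *Klf6* were lower in both the effector and the cycling gate than in the naive-like gate, in the lean and in the obese library. Their falls were at least 2-fold in each case, and the median log2 ratio over all 7 was −2.09 for effector and −2.56 for cycling cells, as means of both libraries. Of the 7 genes, 6 were lower by a log2 ratio of 1 or more in both libraries in effector cells, against 3.48% of the 7462 genes tested. The same count was 6 in cycling cells, against 4.62% of 7621 genes. The median ratio over all genes tested was 0.24 and 0.30.

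**Figure D1:**
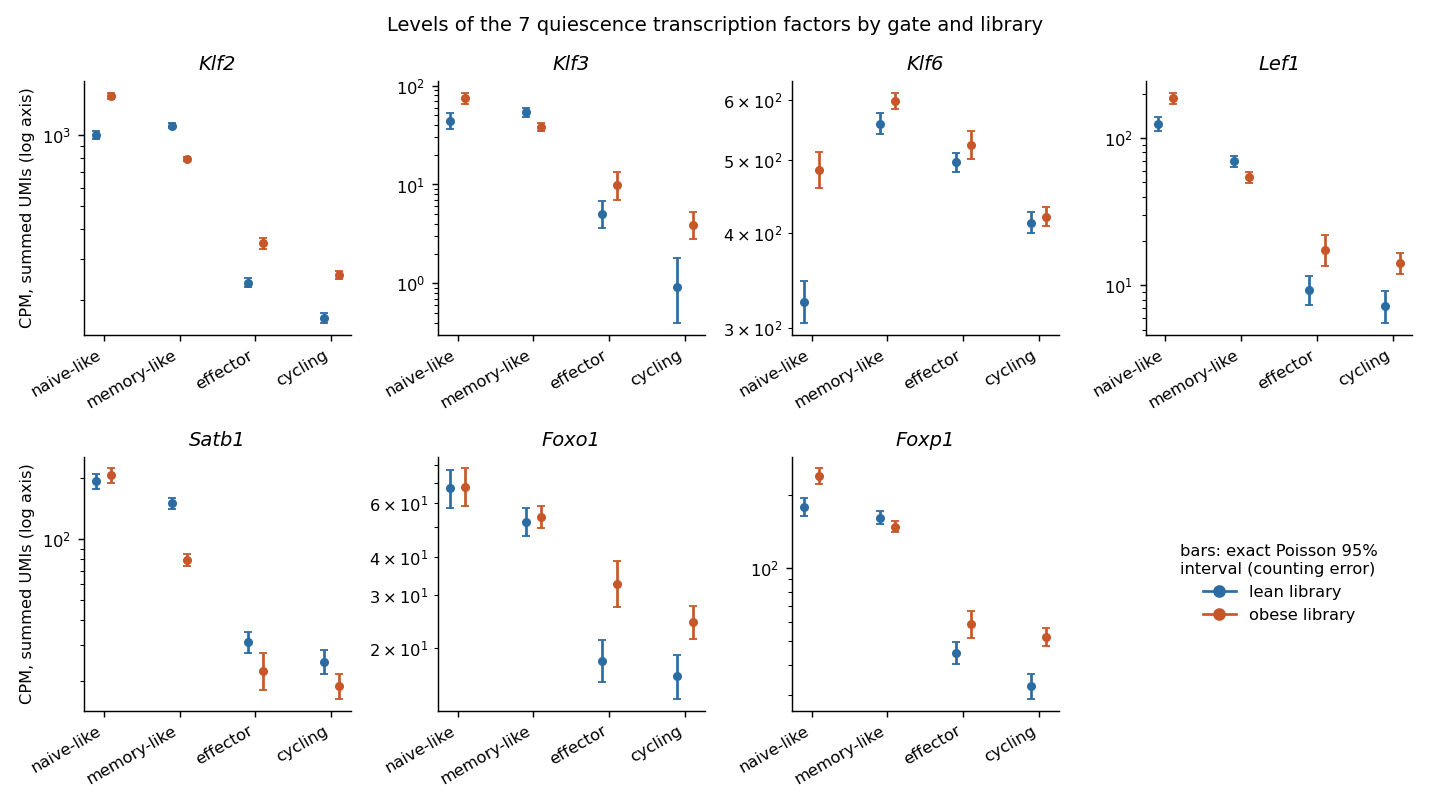
Level of each factor in CPM on a log axis, by gate, in the lean and the obese library. Points are summed UMIs and bars exact Poisson 95% intervals. *Klf6* keeps between 325 and 598 CPM in every gate, while the other 6 sit lower in the effector and cycling gates in both libraries.

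Among the Krüppel-like factors, *Klf2* was at 1006 CPM in naive-like cells of the lean library (interval 969 to 1043) and at 1473 CPM in those of the obese library (1429 to 1518). In effector cells it was at 237 and 348 CPM, which is 4.25-fold and 4.24-fold lower than in naive-like cells. Cycling cells had the least, with 168 CPM in the lean and 255 CPM in the obese library. The intervals of effector and cycling cells did not overlap in either library, so the order of these gates is beyond counting error. Cycling cells were also deeper, with medians of 20727 and 20494 UMIs against 10331 and 10071. Effector cells at or over their gate's median of 10235 UMIs had 178 and 258 CPM of *Klf2*. Cycling cells under their gate's median of 20556 UMIs had 226 and 327 CPM. The order of these gates for *Klf2* therefore depended on the depth of the cells compared.

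*Klf3*, a repressor of the same family, was nearly lost from cycling cells. It was at 44.0 CPM in lean and 74.4 CPM in obese naive-like cells, and at 5.05 and 9.79 CPM in effector cells. Cycling cells held 8 UMIs of *Klf3* in the lean library, or 0.911 CPM, and 41 UMIs in the obese library, or 3.88 CPM. The log2 ratio of cycling over naive-like cells was −5.59 (−6.84 to −4.57) in the lean and −4.26 (−4.78 to −3.77) in the obese library, and 0.105% of the genes tested had a lower mean ratio.

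*Klf6*, which is also known as an early response gene, did not follow the other factors. It was at 325 CPM in lean and 485 CPM in obese naive-like cells, and at 496 and 523 CPM in effector cells. Cycling cells had 413 and 421 CPM. The log2 ratio of effector over naive-like cells was 0.61 (0.51 to 0.72) in the lean and 0.11 (0.01 to 0.21) in the obese library. For cycling cells it was 0.35 (0.24 to 0.45) and −0.20 (−0.29 to −0.12), so the direction differed between the libraries. As a mean of both libraries, the effector ratio of 0.36 stayed above 0 with other scalings (0.20 with TMM factors, 0.044 without mitochondrial and ribosomal protein genes in the total), whereas the cycling ratio of 0.072 turned to −0.065 and −0.26.

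The promoters of these 2 genes are shown because *Klf2* and *Klf6* are close relatives with unlike levels along the gates. Each run is the 250 bases before the RefSeq start site on the plus strand of GRCm38.p6, at chr8:72318812-72319061 for *Klf2* and chr13:5861239-5861488 for *Klf6*. The last bases of both runs lie inside the genes as GENCODE draws them, from 72319033 for *Klf2* and from 5861482 for *Klf6*. Capitals mark the GC box GGGCGG, the KLF motif CCACCC and the MEF2 motif (CTA and TAG with any 4 bases between), each searched on both strands.
Klf2: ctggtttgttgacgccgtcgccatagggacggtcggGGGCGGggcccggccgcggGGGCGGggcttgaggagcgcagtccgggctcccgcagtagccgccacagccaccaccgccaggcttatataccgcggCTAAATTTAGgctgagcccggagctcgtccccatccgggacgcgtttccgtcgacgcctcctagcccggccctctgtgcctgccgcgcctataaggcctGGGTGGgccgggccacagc
Klf6: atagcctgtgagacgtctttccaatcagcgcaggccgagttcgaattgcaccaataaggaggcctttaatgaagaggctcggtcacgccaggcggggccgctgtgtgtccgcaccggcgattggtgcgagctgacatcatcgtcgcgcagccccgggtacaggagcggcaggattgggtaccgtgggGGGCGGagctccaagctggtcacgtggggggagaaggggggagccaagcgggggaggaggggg

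The *Klf2* run holds 2 GC boxes, 1 KLF motif and 1 MEF2 motif, and the *Klf6* run holds 1 GC box and neither of the others. Of 32851 promoters of this length, 32.7% hold the GC box, 28.1% the KLF motif and 3.2% the MEF2 motif. The forkhead motif GTAAACA, found in 3.17% of promoters, is in none of the 16 promoters listed for the 7 genes. These letter matches describe the windows and say nothing of which factors bind there.

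*Lef1*, which encodes a factor of the WNT pathway that keeps naive T cells in their state, was at 125 CPM in lean (112 to 138) and 187 CPM in obese naive-like cells (172 to 204). Effector cells had 9.28 and 17.3 CPM, which is 13.4-fold and 10.8-fold lower. In cycling cells *Lef1* was at 7.17 and 14.2 CPM. Its intervals for effector and cycling cells overlapped in both libraries, so their order was not resolved at this depth.

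*Satb1* encodes a chromatin organizer of T cell development. It was at 194 CPM in lean and 207 CPM in obese naive-like cells, and at 31.0 and 22.4 CPM in effector cells. Cycling cells had 24.8 and 18.7 CPM. *Satb1* was thus 6.26-fold lower in effector than in naive-like cells of the lean library and 9.27-fold lower in the obese library.

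Of the forkhead factors, *Foxo1* declined least. It was at 67.2 CPM in lean and 68.0 CPM in obese naive-like cells, and at 18.2 and 32.6 CPM in effector cells. The log2 ratio of effector over naive-like cells was −1.88 (−2.20 to −1.57) in the lean and −1.06 (−1.39 to −0.73) in the obese library. *Foxp1*, which represses the IL-7 receptor and growth in resting T cells, went from 178 and 238 CPM in naive-like cells to 44.7 and 58.8 CPM in effector cells and 32.6 and 52.1 CPM in cycling cells. This is 3.99-fold and 4.06-fold lower in effector cells.

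Memory-like cells were nearer to naive-like cells. None of the 7 genes was lower by a log2 ratio of 1 or more in both libraries, against 1.06% of 7269 genes. This count does not set the 7 apart from other genes. Their median ratio was −0.38 against 0.14 over all genes tested. *Lef1* came closest, with 69.5 CPM in lean and 54.2 CPM in obese memory-like cells and log2 ratios of −0.84 and −1.79. The libraries also differed for *Satb1*, with −0.37 in the lean and −1.39 in the obese library, and for *Klf3*, with 0.30 and −0.96. *Klf2* was at 1098 CPM in lean and 792 CPM in obese memory-like cells. It was above the naive-like level in the lean library (0.13, interval 0.06 to 0.19) and below it in the obese library (−0.90, −0.95 to −0.84). The lean order was the reverse once cells with markers of other cell types were left out, as given below. *Klf6* was at its highest here, with 558 and 598 CPM.

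The memory-like gate was mixed with respect to these genes. Cells in it that also met the naive-like cut, 352 lean and 307 obese, had 1560 and 1251 CPM of *Klf2*, and those that did not had 770.1 and 595 CPM. *Satb1* was at 240 and 167 CPM in the first and at 87.2 and 41.3 CPM in the second. *Lef1* was at 114 and 103 CPM in the first and at 37.5 and 33.4 CPM in the second. *Klf6* again went the other way, from 466 and 540 CPM to 623 and 623 CPM.

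The naive-like gate also held UMIs of markers of other cell types, and their source was not tested. Summed dendritic cell markers were at 236 CPM in its lean and 458 CPM in its obese cells, against 38.1 and 189 CPM in memory-like cells. All 5 of these markers had UMIs in both libraries of the naive-like gate. Summed myeloid markers there went the other way, with 95.9 CPM in lean and 32.6 CPM in obese cells. Leaving out cells with 3 or more UMIs of myeloid, dendritic or B cell markers, or with under 3 UMIs of *Cd3d*, *Cd3e*, *Cd3g* and *Trac* together, removed 44 lean and 34 obese cells of the naive-like gate, or 14.4% and 10.8%. The same rule removed 4.48% and 6.67% of memory-like, 12.1% and 14% of effector and 22.9% and 20.6% of cycling cells. Without these cells *Klf2* was at 1235 CPM in the lean (1188 to 1283) and 1722 CPM in the obese naive-like gate. Memory-like cells then had 1144 CPM (1117 to 1170) in the lean and 844 CPM in the obese library. *Klf2* was thus lower in memory-like than in naive-like cells of the lean library too. Its mean log2 ratio of memory-like over naive-like cells went from −0.38 to −0.57. Depth moved with the levels as well. Naive-like cells under the gate's median of 7725 UMIs had 1900 CPM of *Klf2* in the lean and 2544 CPM in the obese library, and the deeper cells had 612 and 913 CPM. In cells at or over 8597 UMIs, the median over the 4 gates, the mean memory-like over naive-like ratio of *Klf2* was 0.15, and that of effector over naive-like cells was −1.53. The order of memory-like and naive-like cells for *Klf2* therefore depended on the depth of the cells and, in the lean library, on which cells were left out. The effector ratio kept its direction.

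Among T cells outside the cycling gate, all 7 were lower in the highest bin of the share of effector marker UMIs than in cells with none, in both libraries, by far the least for *Klf6*. Lean cells with no effector marker UMI had 1305 CPM of *Klf2*, those with 5 to 10 per 10000 UMIs had 404 CPM, and those with 50 or more had 154 CPM. In the obese library the same bins had 1210, 396 and 288 CPM, the last from 27 cells. The decline was not even from bin to bin, since obese cells with 20 to 50 had 370 CPM of *Klf2* against 344 CPM with 10 to 20. *Satb1* was at 206 CPM in the first and 23.6 CPM in the last bin of lean cells, and at 158 and 26.5 CPM in obese cells. *Klf6* was at 456 and 543 CPM in the first bin and at 398 and 507 CPM in the last, with its highest values between. The obese *Klf6* intervals of these bins overlapped (524 to 563 and 443 to 577). Cells of the last bin were also deeper than those of the first, with medians of 15697 against 6708 UMIs in the lean library. In the obese library these were 13679 and 7344 UMIs, and the part of depth in the decline was not tested.

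**Figure D2:**
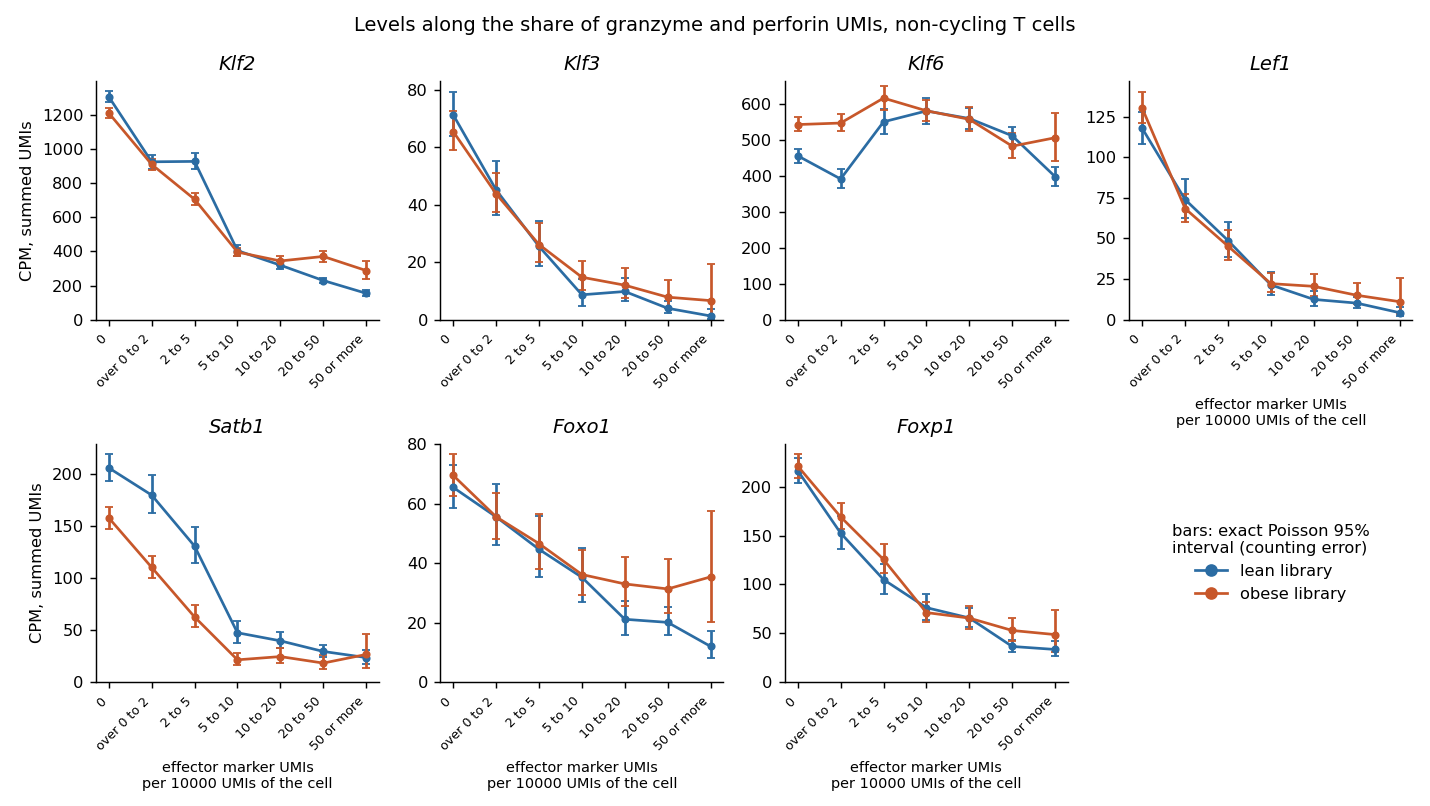
Level of each factor in CPM along bins of the share of granzyme and perforin UMIs per cell, for T cells outside the cycling gate in the lean and the obese library. Points are summed UMIs with exact Poisson 95% intervals. The lean *Klf2* level drops from 1305 to 154 CPM, while *Klf6* stays between 392 and 617 CPM in both libraries.

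To compare shares of cells at 1 depth, each cell was thinned to 2000 UMIs and shallower cells, at most 44 in a gate and library, were left out. *Klf2* was then seen in 66.4% of lean (60.8% to 71.7%) and 78.7% of obese naive-like cells (73.7% to 83.1%), and in 28.0% and 37.4% of effector cells. Without thinning these shares were 81.7%, 89.2%, 49.3% and 63.4%. *Klf6* was seen in 43.4% and 56.7% of thinned naive-like cells and in 59.7% and 58.6% of thinned effector cells. *Lef1* was seen in 22.4% and 31.2% of thinned naive-like cells but in 3.32% and 3.96% of effector and 1.83% and 2.47% of cycling cells.

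A free pool of RNA can give such low shares, since it puts UMIs into droplets whose cells do not make the gene, and its part in them was not tested. The count of *Klf2* per *Lef1* UMI was 8.06 in lean naive-like and 25.5 in lean effector cells, and 7.86 and 20.1 in the obese library. *Satb1* per *Lef1* UMI went from 1.56 to 3.34 in the lean library and from 1.11 to 1.29 in the obese library. No gate was set for a cell type that should lack these genes, so no background level is given.

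Taken per cell, 2.24 of the 7 genes were seen on average in a thinned lean naive-like cell and 2.68 in an obese one. The mean was 2.10 and 1.91 in memory-like, 1.15 and 1.27 in effector, and 0.976 and 1.10 in cycling cells. None of the 7 was seen in 10.5% of lean and 5.41% of obese naive-like cells, and in 25.1% and 20.9% of effector cells. The 3 KLF genes made up 70.9% and 74.4% of the summed UMIs of the 7 genes in naive-like cells and 87.7% and 87.0% in effector cells, mostly through *Klf6*, whose part went from 16.7% and 17.7% to 59.0% and 51.7%.

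The study compared lean with obese mice. Over all cells, 6 of the 7 genes were higher in the obese library and *Satb1* was lower, each with an interval that excludes a log2 ratio of 0. The ratios of obese over lean were 0.20 for *Klf2*, 0.29 for *Klf3*, 0.13 for *Klf6*, 0.39 for *Lef1*, −0.35 for *Satb1*, 0.38 for *Foxo1* and 0.35 for *Foxp1*. Their median was 0.29 against 0.04 over all genes tested. None of the 7 was higher by 0.5 or more, against 2.51% of 7064 genes. Since the libraries differ in how many cells fall in each gate, the ratios were taken again within gates.

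Within the naive-like gate, 4 of 7 were higher in the obese library by a log2 ratio of 0.5 or more, against 9.06% of 6788 genes. *Klf2* had a ratio of 0.55 (0.48 to 0.62), *Klf3* 0.76 (0.43 to 1.09), *Klf6* 0.58 (0.46 to 0.70) and *Lef1* 0.59 (0.39 to 0.78). *Foxp1* was higher by 0.42 (0.25 to 0.59). The intervals of *Satb1* (−0.07 to 0.26) and *Foxo1* (−0.28 to 0.31) include 0. Without cells with markers of other lineages, *Klf2* had 0.48 (0.41 to 0.55) and *Lef1* 0.49 (0.30 to 0.70), just under the limit of 0.5. *Klf3* and *Klf6* stayed above it, at 0.60 and 0.54.

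Within the effector gate, 3 of the 6 genes above the level limit were higher by 0.5 or more, against 7.14% of 7017 genes. *Klf2* had a ratio of 0.55 (0.45 to 0.65), *Lef1* 0.90 (0.41 to 1.39) and *Foxo1* 0.84 (0.50 to 1.19). *Klf3*, which was under the limit of 10 CPM with 43 lean and 39 obese UMIs, had 0.96 (0.29 to 1.62), and this turned to −0.19 when cells were thinned. In cycling cells 4 of 6 were higher by 0.5 or more, against 3.59% of 7101 genes, with ratios of 0.61 for *Klf2*, 0.98 for *Lef1*, 0.59 for *Foxo1* and 0.68 for *Foxp1*. *Klf6* was within 0.08 of 0 in both gates. *Satb1* was lower in the obese library in both, at −0.47 (−0.84 to −0.12) and −0.41 (−0.69 to −0.12). Without cells with markers of other lineages these became −0.39 (−0.78 to −0.01) and −0.08 (−0.41 to 0.25), so the difference in cycling cells was no longer resolved. Whether it came from the cells left out was not tested.

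The memory-like gate went the opposite way. *Klf2* was lower in the obese library by a log2 ratio of −0.47 (−0.52 to −0.43), *Klf3* by −0.51 (−0.71 to −0.30), *Lef1* by −0.36 (−0.54 to −0.18), *Satb1* by −0.93 (−1.06 to −0.79) and *Foxp1* by −0.12 (−0.24 to −0.01). Of the 7, 2 were lower by 0.5 or more, against 1.89% of 6976 genes. Within the cells of this gate that also met the naive-like cut and those that did not, *Klf2* had −0.32 and −0.37 and *Klf3* −0.31 and −0.37, all with intervals below 0. *Lef1* had −0.15 (−0.38 to 0.07) and −0.17 (−0.47 to 0.13) and *Foxp1* 0.05 and −0.04, all with intervals that include 0. Their differences over the whole gate were thus not resolved in either kind of cell, and both *Lef1* intervals also include its whole-gate ratio. In the cells without naive-like markers, other lineages left out, the *Klf2* ratio was −1.36 (−1.63 to −1.08) with 10 to 20 memory-like marker UMIs per 10000, 0.03 (−0.12 to 0.17) with 20 to 50 and −0.49 (−0.57 to −0.41) with 50 or more. *Klf6* was higher by 0.10 (0.04 to 0.16), and the interval of *Foxo1* (−0.14 to 0.25) includes 0. The median of the 7 was −0.36 against 0.07 over all genes tested. Obese memory-like cells were also deeper, with a median of 8431 UMIs against 6659. Among memory-like cells at or over 8597 UMIs the ratio of *Klf2* was −0.07 and that of *Foxp1* 0.10, while on either side of the gate's own median, without cells with markers of other lineages, *Klf2* had −0.35 and −0.33. Whether the diet ratio differs between gates was not tested, since each gate has 1 library per diet.

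**Figure D3:**
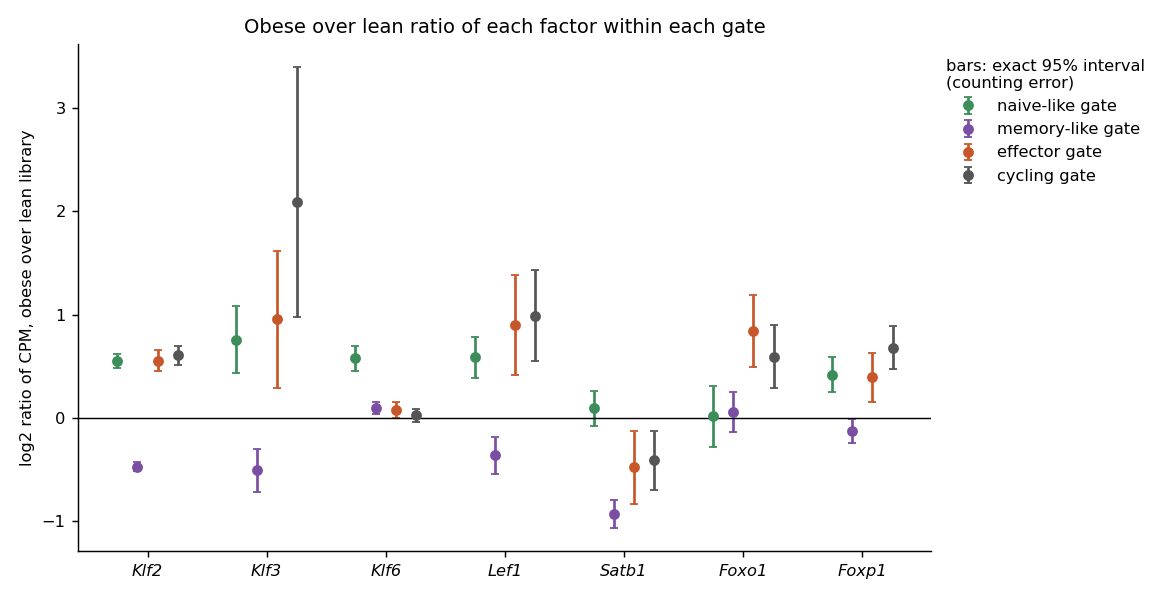
Log2 ratio of CPM of the obese over the lean library for each factor within each gate. Bars are exact conditional binomial 95% intervals and the line at 0 marks equal levels. For *Klf2*, *Klf3*, *Lef1* and *Foxp1* the memory-like points lie below 0 and the points of the other 3 gates above it.

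The boundary between the naive-like and memory-like gates was then opened. Cells with naive-like markers from both gates, 607 lean and 573 obese after cells with markers of other lineages were left out, were ordered by their share of memory-like marker UMIs. With under 2 such UMIs per 10000, *Klf2* was at 1553 CPM in lean and 2288 CPM in obese cells, a ratio of 0.56 (0.46 to 0.66). With 10 to 20 it was at 1373 and 1241 CPM (−0.15, −0.31 to 0.01), and with 50 or more at 1891 and 1359 CPM (−0.48, −0.57 to −0.39). Over all these cells together *Klf2* was at 1442 and 1504 CPM, a ratio of 0.06 (0.01 to 0.11). The sign of the *Klf2* ratio therefore depended on how many memory-like marker UMIs the cells held, and little difference was left once they were pooled.

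*Lef1* was at 217 CPM in lean and 307 CPM in obese cells of the lowest bin and at 115 and 122 CPM in the highest. *Satb1* was at 246 and 291 CPM in the lowest bin, where the interval of its ratio includes 0 (−0.02 to 0.50), and at 223 and 155 CPM in the highest, a ratio of −0.52 (−0.79 to −0.26). *Klf6* was higher in the obese library in each of the 6 bins, from 328 and 540 CPM in the lowest to 532 and 610 CPM in the highest. Its interval includes 0 in the bin of 20 to 50.

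**Figure D4:**
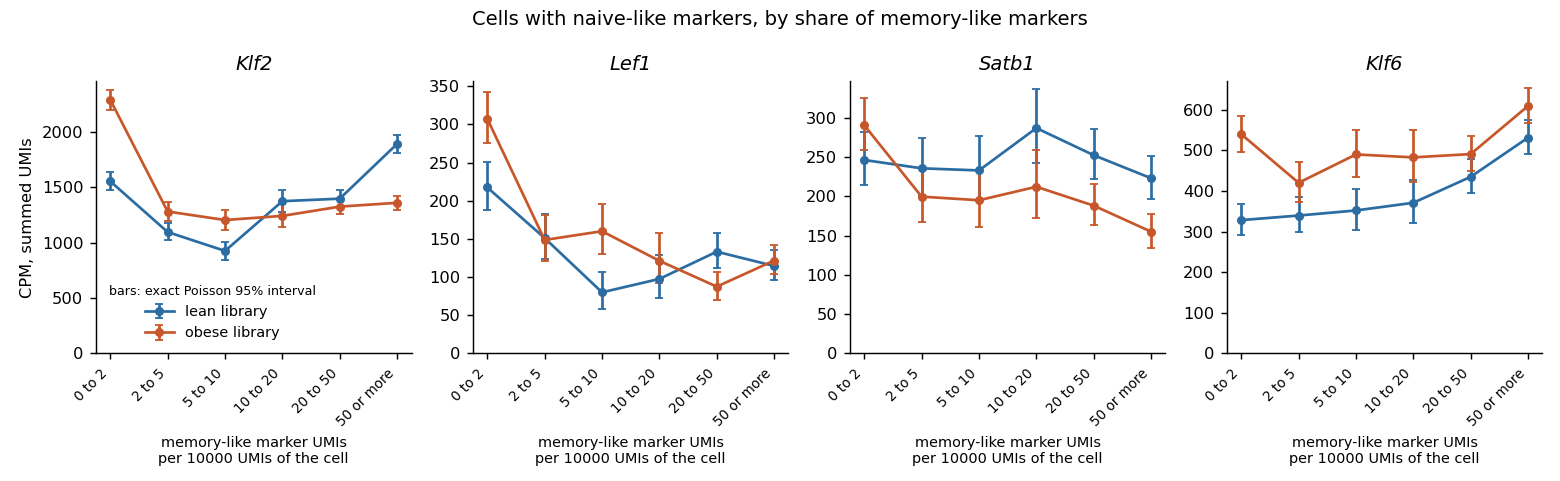
Levels in CPM of *Klf2*, *Lef1*, *Satb1* and *Klf6* in cells with naive-like markers, binned by memory-like marker UMIs per 10000 UMIs of the cell, in the lean and the obese library. Points are summed UMIs with exact Poisson 95% intervals. The lean and obese *Klf2* lines cross, from 1553 against 2288 CPM at the left to 1891 against 1359 CPM at the right.

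*Satb1* had the lowest obese over lean ratio of the 7 factors in memory-like cells. There it was at 150 CPM in the lean library (141 to 160) and 79.1 CPM in the obese library (73.8 to 84.7). At 2000 UMIs it was seen in 22.7% (20.1% to 25.6%) of lean and 12.9% (11% to 15.1%) of obese memory-like cells, against 45.7% and 32.4% without thinning. Memory-like cells with naive-like markers had a ratio of −0.52 and those without −1.08 (−1.31 to −0.85). The gap was present in shallow and in deep memory-like cells, at −1.20 below and −0.86 above the gate's median of 7299 UMIs, with cells with markers of other lineages left out.

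Stress-linked transcripts differed between the libraries in the same cells. The summed level of 21 immediate early and heat shock genes, which are known to respond to tissue dissociation and which include *Fos* and *Jun*, was 7493 CPM in the lean and 9562 CPM in the obese library, and it was higher in the obese library in each gate. In naive-like cells it was 8272 and 10635 CPM, in memory-like cells 9374 and 11072 CPM, in effector cells 6555 and 8527 CPM, and in cycling cells 6604 and 8107 CPM. Cells were therefore also split into 4 equal strata of this share. Over all cells *Klf2* was then higher in the obese library in the lowest stratum (0.26, 0.17 to 0.34) and lower in the other 3, at −0.24, −0.43 and −0.51. *Klf6* had ratios of −0.04, −0.03, 0.01 and −0.10. *Satb1* was lower in the obese library in all 4, from −1.09 to −0.29.

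Inside the gates these strata gave *Klf2* ratios between 0.06 and 0.55 in naive-like cells and between −0.83 and −0.51 in memory-like cells. In naive-like cells the intervals of the lowest (−0.07 to 0.34) and the highest stratum (−0.08 to 0.20) include 0. A higher *Klf2* level in obese naive-like cells was thus resolved only in the middle strata. In memory-like cells *Satb1* had ratios of −1.75, −1.27, −1.29 and −0.60. In naive-like cells *Satb1* had no common direction, with −0.55, 0.04, −0.53 and 0.63. In effector cells the *Klf2* ratio was close to 1 in the lowest stratum and then −0.31, 0.04 and −0.59, and in cycling cells it was 0.34, 0.51, 0.67 and −0.57. In effector cells a higher *Klf2* level in the obese library was thus resolved only in the lowest stratum, and in cycling cells in the lowest 3. The lowest stratum held 332 lean but 59 obese effector cells, and the highest 53 and 72. Lean effector cells had 140 CPM of *Klf2* in the lowest and 1008 CPM in the highest stratum. The effector ratio over the whole gate therefore mixes the ratios within strata with the spread of cells over strata. Over all cells, 11 of the 20 immediate early and heat shock genes tested were higher in the obese library by 0.5 or more, against 2.51% of all genes. The part of these transcripts in the diet ratios was not tested. Melanoma markers were at most at 1.15 CPM in any gate, and hemoglobin genes, at 0 in the lean library, were at 320 CPM over all obese cells but at most at 3.26 CPM in any gate.

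Genes known as targets of KLF2 or FOXO1 were listed, apart from the gate markers where gates were compared. Of the 9 tested, 7 were lower in effector than in naive-like cells by a log2 ratio of 1 or more in both libraries, against 3.48% of all genes. *S1pr1* was at 70.7 CPM in lean and 92.4 CPM in obese naive-like cells and at 10.7 and 17.1 CPM in effector cells. *Il7r*, the receptor for the survival factor IL-7, went from 181 and 258 CPM to 44.9 and 30.1 CPM. *Klrg1*, a marker of terminal effectors that FOXO1 is known to restrain, was at 6.58 and 10.8 CPM in effector cells and passed the level limit only there, since its naive-like levels rest on 2 and 1 UMIs. In memory-like cells *S1pr1* was lower in the obese library, at 85.0 against 57.9 CPM (−0.55), and in cycling cells it was higher, at 3.07 against 10.9 CPM (1.82, 1.21 to 2.48). The list as a whole was mixed, and between diets it also took in markers of the naive-like gate such as *Ccr7*. In memory-like cells 3 of 10 targets were lower in the obese library by 0.5 or more, against 1.89% of all genes, and none was higher. The 3 include *Ccr7* (−0.57, −0.73 to −0.40). In effector cells 7 of 9 were higher, against 7.14%, but *Il7r* was lower, at 44.9 against 30.1 CPM (−0.57, −0.88 to −0.27). The 7 include *Cd69* (0.90, 0.76 to 1.04), the gate marker *Ccr7* (0.90, 0.34 to 1.45) and *Klrg1* (0.72, 0.11 to 1.31). Since FOXO1 is known to restrain *Klrg1*, the count pools genes that the factors drive with a gene that is restrained. In cycling cells 4 of 9 were higher, against 3.59%.

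Other genes linked with quiescence were mixed. Of 22 tested, 6 were lower in effector cells and none higher, and 10 of 21 were lower in cycling cells, against 3.48% and 4.62% of all genes. *Tcf7*, which encodes the partner factor of LEF1, was at 186 and 194 CPM in naive-like and at 6.93 and 10.0 CPM in effector cells. *Bach2*, a repressor of effector genes, was at 38.1 and 46.4 CPM and at 2.35 and 5.52 CPM. *Id3*, an inhibitor of E proteins, was at 82.4 and 57.0 CPM and at 4.35 and 4.77 CPM. Between diets, 2 of 22 were lower in obese memory-like cells by 0.5 or more, against 1.89% of all genes, and 1 was higher. *Tcf7* was at 123 CPM in lean and 76.3 CPM in obese memory-like cells (−0.69, −0.83 to −0.55). *Tob2* went the other way, at 58.0 and 93.3 CPM (0.69, 0.52 to 0.86). Over all cells 2 of 21 were higher in the obese library, against 2.51% of all genes, and none was lower.

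Relatives of the 7 genes were mostly too low to test, with 8 of 24 above the level limit in effector or naive-like cells. Of these, 4 were lower in effector cells, against 3.48% of all genes: *Tcf7*, *Klf11*, *Klf7* and *Klf4*. *Klf4*, also an early response gene, was at 68.2 and 124 CPM in naive-like and 29.2 and 57.8 CPM in effector cells. It was higher in the obese library over all cells, at 46.8 against 76.3 CPM (0.70, 0.60 to 0.80).

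Factors of activation and effector fate were listed for contrast. Of 14 tested, 4 were higher in effector than in naive-like cells and none lower by the same limit, against 6.62% of all genes that were higher. *Prdm1*, which encodes BLIMP-1, was at 5.20 and 3.90 CPM in naive-like and 47.3 and 35.9 CPM in effector cells. *Id2* was at 101 and 139 CPM and at 741 and 634 CPM. *Eomes*, a factor of memory and exhausted cells, was higher in the obese library over all cells, at 29.3 against 50.8 CPM (0.79, 0.67 to 0.92).

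The likeness of the profiles was described over 10 groups, the 4 gates and the ungated cells of each library, which share their libraries and scaling. Pearson's r of log2(CPM + 1) was between 0.84 and 0.98 for the 15 pairs without *Klf6*, and between −0.18 and 0.19 for the 6 pairs with it. Among 8292 other genes, those most like *Klf2* were *Vipr1* (0.99), *Acp5* (0.98) and *Klf7* (0.98). *Klf3* was most like *Gm2682*, *S1pr1* and *Abcg1*, and *Klf6* most like *Tut7*, *Paxx* and *Ifi203*. *Lef1* and *Satb1* each had a ribosomal protein gene first, *Rpl23* (0.99) and *Rps29* (0.98). *Foxo1* was most like *Socs3* (0.99) and *Foxp1* most like *Gm20186* (0.99).

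Cells outside the filters had levels of their own. The 83 lean and 121 obese cells with 50000 or more UMIs had 137 and 192 CPM of *Klf2* and 26.6 and 14.2 CPM of *Satb1*. The 158 and 213 cells with 7.5% or more mitochondrial UMIs had 193 and 199 CPM of *Klf2* and 589 and 625 CPM of *Klf6*.

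In the GENCODE annotation of GRCm38, the genes are protein coding and lie on chromosome 8 from 72319033 to 72321656 for *Klf2* (ENSMUSG00000055148), 5 from 64803388 to 64832901 for *Klf3* (ENSMUSG00000029178) and 13 from 5861482 to 5870394 for *Klf6* (ENSMUSG00000000078). *Lef1* (ENSMUSG00000027985) lies on chromosome 3 from 131110471 to 131224356 and *Foxo1* (ENSMUSG00000044167) on the same chromosome from 52268336 to 52353221. *Satb1* (ENSMUSG00000023927) lies on chromosome 17 from 51736187 to 51833290 and *Foxp1* (ENSMUSG00000030067) on 6 from 98925338 to 99522721. *Gm20705* overlaps *Foxp1* on the same strand and was counted too, so reads in the shared part are uncertain. No other counted gene overlaps a factor on its own strand.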

How the data were processed

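The authors made UMI counts per gene and cell with Cell Ranger 6.0.2 on mm10 from 3′ libraries and deposited these raw counts for each library. Cells with under 7.5% mitochondrial UMIs and over 500 and under 50000 UMIs were kept, as in the study's methods. The deposited matrices hold 2697 lean and 2623 obese cells, the numbers that the paper gives as analyzed after its quality control. The same limits removed some of these cells here, and the reason for the mismatch is not known. The libraries share 4 barcodes, 2 after filtering. A cell needed a T cell marker UMI and went to the first gate met in the order cycling (5 marker UMIs per 10000), effector (10), memory-like (10) and naive-like (2). No doublet caller was run. An alternative leaves out cells over the naive-like and the cycling or effector cut.

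CPM carry exact Poisson, shares exact binomial (Clopper-Pearson) and log2 ratios exact conditional binomial 95% intervals (numpy 2.4.6, scipy 1.17.1, pandas 2.3.3). Genes tested had 10 CPM in 1 group and 20 UMIs. The log2 ratios, their intervals and the calls past the fold were tested on simulated counts, and thinning was checked on the measured counts. Other steps, such as the gates, were not tested on simulated counts. The 7 genes, lists, gates and comparisons were chosen with earlier results of these data known. All 7 factors, up to 4 genes per list and comparison with the largest ratio, and the 3 genes most like each factor could be named. Positions are from GENCODE, where 99.6% of identifiers were found. Promoters are RefSeq's. A marker of the naive-like gate is not reported here.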

Additional observations from a re-analysis of the deposited data

Results flagged for a closer look

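For 4 factors the obese over lean log2 ratio had an interval above 0 in some gates and below 0 in another, and the difference between gates was not tested. *Klf2* had 0.55 in naive-like, 0.55 in effector and 0.61 in cycling cells but −0.47 in memory-like cells. *Klf3* had 0.76, 0.96 and 2.09 in these 3 gates and −0.51 in memory-like cells, but it was under the level limit in effector and cycling cells (43 and 39, and 8 and 41 UMIs), and its effector ratio was −0.19 with thinning. *Lef1* had 0.59, 0.90 and 0.98, and −0.36 in memory-like cells. *Foxp1* had 0.42, 0.39 and 0.68, and −0.12 in memory-like cells. For *Lef1* and *Foxp1* the memory-like difference was not resolved in either part of the gate after a split by naive-like markers. With 1 library per diet, no value could be compared with others of its group.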

How the results depend on the processing

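No paired analysis was possible because each diet has 1 library. The median log2 ratio of the 7 factors stayed negative in effector over naive-like cells (−2.40 to −1.68) and in cycling over naive-like cells (−2.96 to −1.81) under the 13 alternatives of each. For effector cells it was −2.24 with edgeR TMM factors, −2.40 without mitochondrial and ribosomal protein genes in the total, −1.92 as a mean over cells, −1.82 with thinning and −2.30 with doubled cuts. For cycling cells it was −2.69, −2.88 and −2.72 with TMM factors, the smaller total and thinning, −2.72 with all deposited cells and −2.72 without cells over 2 cuts. For memory-like cells it was −0.48, −0.56, −0.53 and −0.57 with TMM factors, the smaller total, the mean over cells and thinning, −0.65 with doubled and −0.32 with halved cuts.

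Chosen after seeing the data were 3 more settings. Without cells with markers of other lineages the medians were −2.22 for effector, −2.73 for cycling and −0.57 for memory-like cells. In cells under the median depth they were −1.68, −2.96 and −0.68, and in deeper cells −1.70, −1.81 and −0.14. In deeper cells *Klf2* and *Klf3* were at 0.15 and 0.23 in memory-like over naive-like cells.

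Over all cells, the median obese over lean ratio went from 0.29 to −0.038 within strata of immediate early and heat shock share, with −0.23 for *Klf2*, −0.14 for *Klf3* and −0.038 for *Klf6*. The cause was not tested. Within gates, alternatives added later turned *Foxp1* in memory-like cells to 0.0081 with halved cuts and 0.10 in deeper cells, *Klf3* in effector cells to −0.19 with thinning, and *Klf6* in effector cells to −0.17 in shallower cells. Of the other ratios within gates, 311 stayed inside their counting interval and 48 moved further.

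With a minimum of 1 UMI, the background shares were 3.40% for memory-like, 6.85% for effector and 7.81% for cycling over naive-like cells. Between diets they were 19.3% over all cells, 21.8% in naive-like, 16.1% in memory-like, 20.6% in effector and 19.7% in cycling cells. With 50 CPM in 1 group they were 5.49%, 1.25%, 4.48% and 1.90% in the 4 gates. Depth limits *Klf3* in effector and cycling cells.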
